A study of Homo sapiens with 6 samples.

Results

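The genes described here act at the G1/S boundary of the cell cycle and in DNA replication. They are 33 genes chosen by name, each read through its probe set with the highest mean signal, out of 17687 named genes on the array. All 33 had a probe set, each of them a single one, and all 33 passed the filter that left out dim probe sets. RNA of 6 samples was hybridised to Affymetrix arrays, 1 each, and all samples were of Jurkat, a long-established human cell line from a T-cell acute lymphoblastic leukaemia (T-ALL). The CXCL12 group (n = 3) received the chemokine CXCL12, the ligand of the receptor CXCR4, at 100 ng/ml for 15 min. The untreated group (n = 3) received none. Cells of both groups were grown in medium with 10% serum and then kept without serum for 90 min. The question, as the series puts it, was how the expression profile differs after CXCL12. The sample titles call the replicates biological, without saying whether they were separate cultures, so the spread that the p-values rest on could be technical in part.

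As background, cells commit to division when cyclin D kinases and then cyclin E kinase phosphorylate the retinoblastoma protein, which frees E2F transcription factors. E2F factors bind a short GC-rich element in the promoters of genes for origin licensing, the replication fork and nucleotide supply, and their transcripts usually peak around entry into S phase. Jurkat cells grow without synchrony, so a bulk RNA sample mixes cells in all phases, and a shift in the share of cells in a phase cannot be told apart from a shift in RNA per cell.

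Promoters are shown for 5 of the genes that are described in detail below. The E2F element was matched in those of E2F1, MCM6, RFC3 and PCNA, and not in that of CCNE1. The promoters are RefSeq sequences (GRCh38.p14) from 250 bases before to 50 bases after the annotated start, written 5′ to 3′ on the gene's strand. Capitals mark exact matches to the E2F element, searched as TTTCCCGC, TTTGGCGC, TTTCGCGC and TTTGCCGC on both strands.
E2F1, chr20:33686336-33686635, reverse strand: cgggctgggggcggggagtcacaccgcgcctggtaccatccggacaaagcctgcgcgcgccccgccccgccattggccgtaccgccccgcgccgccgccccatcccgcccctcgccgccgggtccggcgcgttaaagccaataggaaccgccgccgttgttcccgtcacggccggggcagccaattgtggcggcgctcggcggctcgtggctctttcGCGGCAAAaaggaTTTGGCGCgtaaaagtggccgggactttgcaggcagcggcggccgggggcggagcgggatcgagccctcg
MCM6, chr2:135876394-135876693, reverse strand: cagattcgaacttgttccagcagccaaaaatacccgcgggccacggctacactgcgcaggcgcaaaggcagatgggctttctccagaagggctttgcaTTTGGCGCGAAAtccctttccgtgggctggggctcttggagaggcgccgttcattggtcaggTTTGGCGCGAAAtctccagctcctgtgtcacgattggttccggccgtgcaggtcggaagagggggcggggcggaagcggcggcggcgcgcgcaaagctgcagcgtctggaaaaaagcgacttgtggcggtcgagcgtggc
RFC3, chr13:33817899-33818198, forward strand: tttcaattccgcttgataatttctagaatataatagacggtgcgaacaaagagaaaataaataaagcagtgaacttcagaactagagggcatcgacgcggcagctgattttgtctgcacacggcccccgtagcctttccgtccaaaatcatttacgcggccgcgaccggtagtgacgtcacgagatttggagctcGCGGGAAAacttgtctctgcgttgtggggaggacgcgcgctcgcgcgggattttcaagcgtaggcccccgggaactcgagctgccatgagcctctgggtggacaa
PCNA, chr20:5126573-5126872, reverse strand: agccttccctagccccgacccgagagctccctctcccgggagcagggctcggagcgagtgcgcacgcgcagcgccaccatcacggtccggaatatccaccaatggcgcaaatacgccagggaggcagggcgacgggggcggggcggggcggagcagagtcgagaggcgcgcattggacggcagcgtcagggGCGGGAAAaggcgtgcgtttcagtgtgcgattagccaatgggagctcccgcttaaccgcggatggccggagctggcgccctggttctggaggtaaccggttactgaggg
CCNE1, chr19:29811741-29812040, forward strand: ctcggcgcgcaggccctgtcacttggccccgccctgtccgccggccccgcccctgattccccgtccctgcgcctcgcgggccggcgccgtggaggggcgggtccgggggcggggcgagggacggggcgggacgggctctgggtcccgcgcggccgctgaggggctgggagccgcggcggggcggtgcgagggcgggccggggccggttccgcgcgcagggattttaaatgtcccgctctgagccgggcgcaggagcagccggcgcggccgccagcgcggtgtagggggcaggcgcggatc
E2F1, which encodes an E2F factor itself, held 2 matches, and their first bases lay at -33 and -20 from the start. In MCM6, a helicase subunit, 4 matches fell in 2 places, because at each place the element reads on both strands with overlap. RFC3 and PCNA, a clamp loader subunit and the sliding clamp, held 1 match each, at -55 and -59 from the start, and a second annotated PCNA window, not shown, held 0. CCNE1, the gene of cyclin E1, held none of these letters in this window, which says nothing about binding.

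The match to the E2F element was common among these genes. Of the 33 genes, 29 had a window that was used, 40 windows in all, and CCNE2, CCND2, MCM4 and MCM5 are only named. For the 33 genes, any window on the chromosome that carries CCNE2 and MCM4 was left out. The whole table was not filtered in this way. A match was present in 17 of the 29 genes (58.6%), against 1090 of 27305 genes in the whole table (3.99%). Counted by window, it was in 17 of 40 (42.5%), against 3.31% of 35116 windows. The 12 genes with a window but no match included FEN1, RRM1, RRM2, CHAF1A and CHAF1B. The CCAAT box, searched as CCAAT on both strands, was in 26 of the 40 windows (65%), against 34.6% of all windows. The GC box GGGCGG was in 30 (75%), against 45.0%. Among elements known from rapidly induced genes, the CArG box of the serum response factor was in 0 of the 40 windows, against 1.29% of all windows. The EGR element GCGTGGGCG or GCGGGGGCG was in 3 (7.5%), against 5.77%, and the cyclic AMP response element TGACGTCA in 2 (5%), against 1.85%, 1 of them the RFC3 window shown above. The TATA box TATAAA was in 1 (2.5%), against 11.5%. A match is a description of letters and not a binding site. The genes were chosen by name for their roles, and the whole table was not matched to them for base composition. No difference between these shares was tested.

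No transcript of these 33 genes changed past the threshold with CXCL12. In the limma fit across 16086 probe sets, 0 of the 33 rose and 0 fell at a Benjamini-Hochberg adjusted p under 0.05, where 0.0124% of all probe sets rose and 0% fell. The adjusted p of the 33 ran from 0.996 to 0.999. At an unadjusted limma p under 0.05 the count was again 0 of 33, against 4.73% of all probe sets, and the smallest unadjusted p was 0.0556, for RFC3. With an added limit of a 1.5-fold change it was also 0 of 33, against 0.211% of all probe sets. The log2 differences (CXCL12 minus untreated) ran from -0.20 for CHAF1B to 0.33 for CCNE1, with a median of -0.04, against a median of 0.00228 over all probe sets tested. Of the 33 differences, 11 were positive and 22 negative (66.7% negative, against 49.3% of all probe sets). Single arrays moved these values: without CXCL12 replicate 2 or untreated replicate 3, 16 differences were positive, with medians of -0.0168 and -0.00857, and without untreated replicate 2, 14 were, with a median of -0.0144. With quantile normalization again 14 were positive and the median was -0.0134. In the other direction, 9 were positive with median centring (median -0.0634) and 9 without untreated replicate 1 (median -0.0568). On the same arrays the immediate early gene EGR1 and the activation marker CD69 were the 2 probe sets that passed, with log2 differences of 1.98 and 1.34 (limma adjusted p = 4.52e-05 and 0.0394). EGR1 passed in all 13 other fits, while the call of CD69 was lost with no dim filter (adjusted p = 0.0547), with median centring (0.0501), without untreated replicate 2 (0.0674) and without CXCL12 replicate 1, 2 or 3 (0.342, 0.0687 and 0.532).

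The intervals describe, 1 gene at a time, how large a difference the arrays left room for. They are not a joint limit for the 33 genes, and they rest on the same spread, which could be technical in part. For 31 of the 33 genes (93.9%), the unadjusted 95% interval lay within a 1.5-fold change in either direction, against 89.9% of all probe sets. The other two were CCNE1, whose interval reached a log2 difference of 0.76, and PCNA, whose interval reached 0.67. All 33 intervals lay within a 2-fold change. A p that missed the threshold does not show that levels were equal, and changes within these intervals were not resolved with 3 arrays a side.

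**Figure D1:**
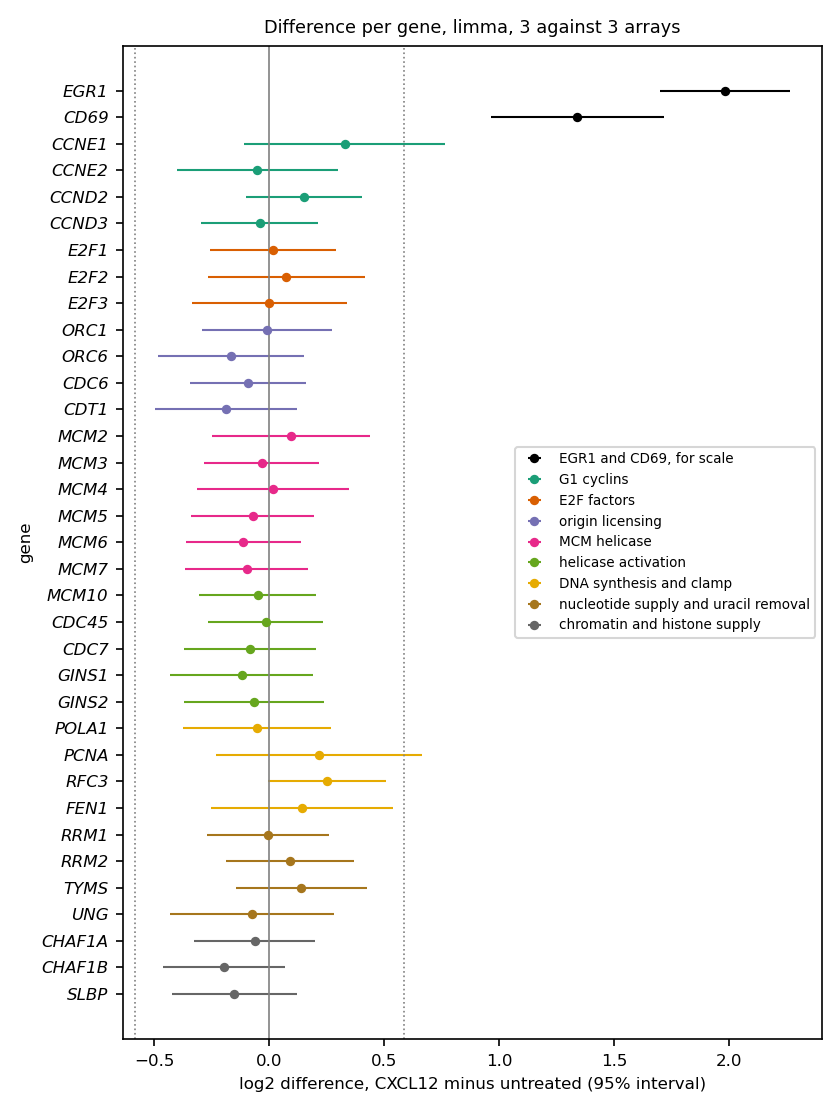
Log2 difference (horizontal axis, CXCL12 minus untreated, limma, 3 arrays each) with its 95% interval for each gene, coloured by role, with EGR1 and CD69 on top for scale. Dotted lines mark 1.5-fold in either direction. All 33 intervals of the G1/S and replication genes include 0, and those of CCNE1 and PCNA pass the dotted line at the upper side.

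Among the cyclins, CCNE1 had the highest difference of all 33 genes and the widest range over the 6 arrays. Cyclin E1 activates CDK2 at entry into S phase. CCNE1 had log2 signals of 7.26, 6.97 and 7.47 on the CXCL12 arrays, in order of replicate number as throughout, against 6.44, 7.31 and 6.96 on the untreated arrays. The groups overlapped, and untreated replicate 1 lay lowest. Group means were 7.23 ± 0.25 with CXCL12 and 6.90 ± 0.44 untreated (SD, n = 3 each), a log2 difference of 0.33 (1.26-fold, SE 0.20, 95% interval -0.11 to 0.76, limma adjusted p = 0.996). Without untreated replicate 1 the difference was 0.10, and without untreated replicate 2 it was 0.53, so single arrays moved it by more than 1.5 times.

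CCND2 encodes cyclin D2, a partner of CDK4 and CDK6. Its log2 signals were 6.05, 6.01 and 5.89 with CXCL12, against 5.87, 5.79 and 5.84 untreated. All CXCL12 arrays lay above all untreated arrays, by 0.02 at the nearest pair. The log2 difference of 0.15 (95% interval -0.10 to 0.40) did not pass (limma adjusted p = 0.996). CCND3, the gene of cyclin D3, differed by -0.04, with arrays between 10.47 and 10.52 with CXCL12 and between 10.44 and 10.65 untreated. CCNE2, the gene of cyclin E2, differed by -0.05, with 8.03 to 8.14 with CXCL12 and 7.73 to 8.33 untreated. For both genes the CXCL12 arrays lay inside the untreated range.

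The activating E2F factors had small differences between groups, none past the threshold, and were uneven within groups. E2F1 stood at 8.38, 8.19 and 8.12 with CXCL12, against 8.11, 8.18 and 8.34 untreated, a log2 difference of 0.02 (95% interval -0.26 to 0.29). E2F2 stood at 8.02, 7.75 and 8.11 with CXCL12, against 7.58, 7.98 and 8.10 untreated, a log2 difference of 0.07 (95% interval -0.27 to 0.41). E2F3 had group means of 6.68 ± 0.12 with CXCL12 and 6.68 ± 0.30 untreated (SD, n = 3 each). For all 3 genes untreated replicate 1 was the lowest of the 6 arrays.

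The 4 origin licensing genes had negative differences, none past the threshold, and the sign of ORC1 depended on the setting. ORC1 and ORC6 encode subunits of the origin recognition complex, and CDC6 and CDT1 bring the MCM helicase to it. CDT1 had 8.28, 8.32 and 8.15 with CXCL12, against 8.23, 8.71 and 8.37 untreated, a log2 difference of -0.19 (SE 0.14, limma adjusted p = 0.996). Untreated replicate 2 was the highest array, and the difference was -0.05 without it. ORC6 had 7.15, 7.31 and 7.09 with CXCL12, against 7.64, 7.17 and 7.23 untreated, a log2 difference of -0.17 (95% interval -0.48 to 0.15). Here untreated replicate 1 was the high array, and without it the difference was -0.02. CDC6 differed by -0.09 and ORC1 by -0.01, with overlapping arrays. ORC1 was positive with quantile normalization again (0.00818), with array weights (0.0116) and when CXCL12 replicate 2 (0.08) or untreated replicate 3 (0.04) was left out.

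The 6 subunits of the MCM2-7 helicase, the ring that unwinds DNA at the fork, had log2 differences from -0.11 to 0.10. MCM6 had 8.638, 8.719 and 8.673 with CXCL12, against 8.818, 8.829 and 8.719 untreated. Its CXCL12 arrays all lay below its untreated arrays, but the nearest pair was equal to 3 decimals. The log2 difference was -0.11 (95% interval -0.36 to 0.14, limma adjusted p = 0.996). MCM2 had 8.95, 8.80 and 9.01 with CXCL12, against 8.46, 9.03 and 8.99 untreated, and a log2 difference of 0.10 that was -0.09 without untreated replicate 1. MCM4 had the same lowest pair of arrays, with 9.86, 9.55 and 9.75 with CXCL12, against 9.39, 9.80 and 9.90 untreated, and a log2 difference of 0.02 that was -0.14 without untreated replicate 1. MCM3, MCM5 and MCM7 had differences of -0.03, -0.07 and -0.10. Subunits of the same ring did not share a lowest array: it was untreated replicate 1 for MCM2, MCM3 and MCM4, CXCL12 replicate 3 for MCM5 and MCM7, and CXCL12 replicate 1 for MCM6.

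Genes that turn the loaded ring into an active helicase had small negative differences, but the sign turned for CDC45, CDC7 and GINS2 when certain single arrays were left out. GINS1 and GINS2 encode GINS subunits, which form the active helicase with CDC45 and the MCM ring, CDC7 encodes the kinase that phosphorylates the ring, and MCM10 encodes a further activation factor. GINS1 had 8.58, 8.94 and 8.57 with CXCL12, against 8.99, 8.79 and 8.67 untreated, a log2 difference of -0.12 (95% interval -0.43 to 0.19). CXCL12 replicate 2 lay inside the untreated range and the other CXCL12 arrays below it, and the difference was -0.24 without that array and -0.03 without untreated replicate 1. GINS2 had 9.40, 9.03 and 9.08 with CXCL12, against 9.07, 9.28 and 9.38 untreated, a log2 difference of -0.07. CDC45 was the steadiest of the 33 genes, with a range of 0.153 over the 6 arrays and a log2 difference of -0.02, which was positive with quantile normalization again (0.00854). CDC7 and MCM10 differed by -0.08 and -0.05.

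**Figure D2:**
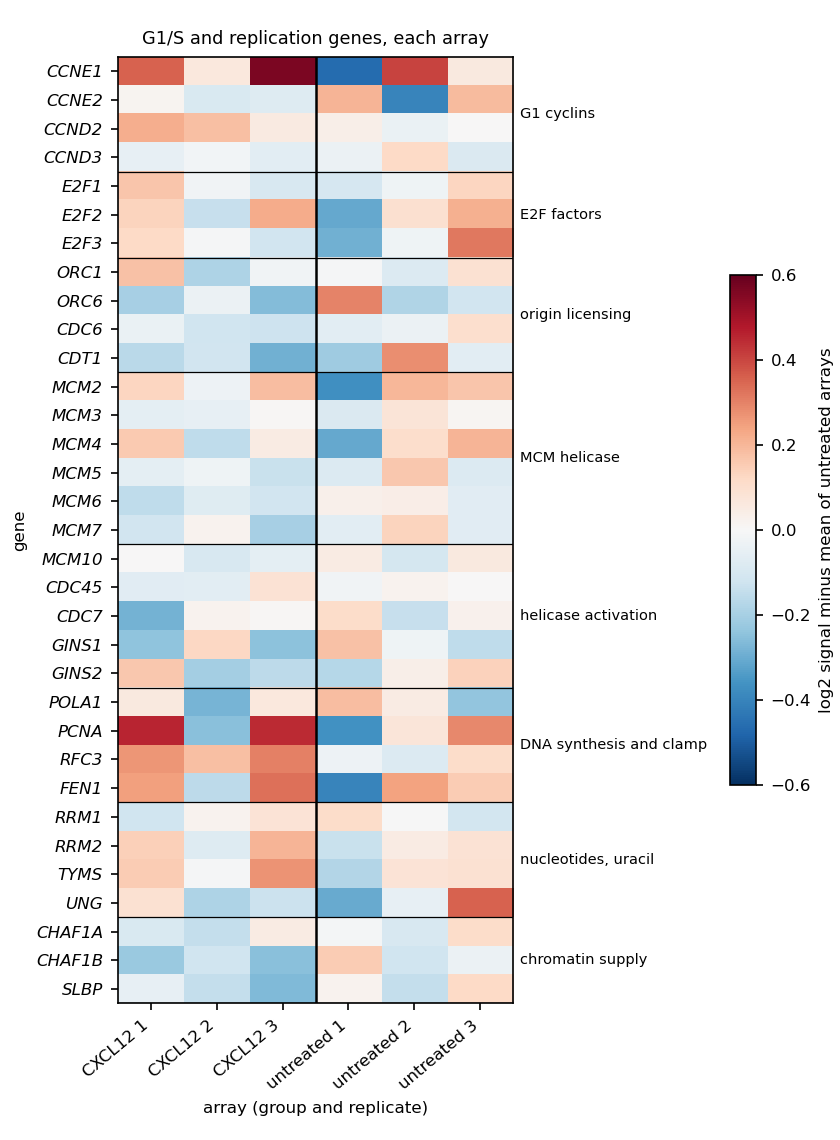
Log2 signal of each gene on each array minus the mean of its untreated arrays (colour), with CXCL12 arrays left of the line and untreated arrays right of it, and genes grouped by role. Values on the 2 sides of the line overlap except in CCND2, RFC3, MCM6 and CHAF1B. The column of untreated replicate 1 holds strong blue cells, among them CCNE1, FEN1, MCM2 and PCNA, and also red cells, among them ORC6, CCNE2 and POLA1.

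Genes of DNA synthesis at the fork held the smallest p of the 33. RFC3 encodes a subunit of the clamp loader, which places the PCNA ring on DNA. RFC3 had 9.35, 9.26 and 9.39 with CXCL12, against 9.05, 9.004 and 9.19 untreated. All CXCL12 arrays lay above all untreated arrays. Means were 9.33 ± 0.06 with CXCL12 and 9.08 ± 0.10 untreated (SD, n = 3 each), a log2 difference of 0.25 (1.19-fold, SE 0.12, 95% interval -0.01 to 0.51, limma unadjusted p = 0.0556, adjusted p = 0.996). By unadjusted p it ranked 841 of 16086 probe sets. Over the fits that left out 1 array each, its difference lay between 0.21 and 0.31, with 0.23 without untreated replicate 1.

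PCNA, the sliding clamp of the polymerases, had 10.64, 9.94 and 10.63 with CXCL12, against 9.82, 10.26 and 10.48 untreated. CXCL12 replicate 2 and untreated replicate 1 were the low arrays. The log2 difference was 0.22 (SE 0.21, limma adjusted p = 0.996), and it became 0.04 without untreated replicate 1 and 0.45 without CXCL12 replicate 2. FEN1, the nuclease that trims flaps between Okazaki fragments, had 10.00, 9.60 and 10.09 with CXCL12, against 9.36, 10.00 and 9.91 untreated. Its arrays had the same low pair as those of PCNA, and its log2 difference of 0.14 was -0.06 without untreated replicate 1. POLA1, the catalytic subunit of the priming polymerase, differed by -0.05 (95% interval -0.37 to 0.27).

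**Figure D3:**
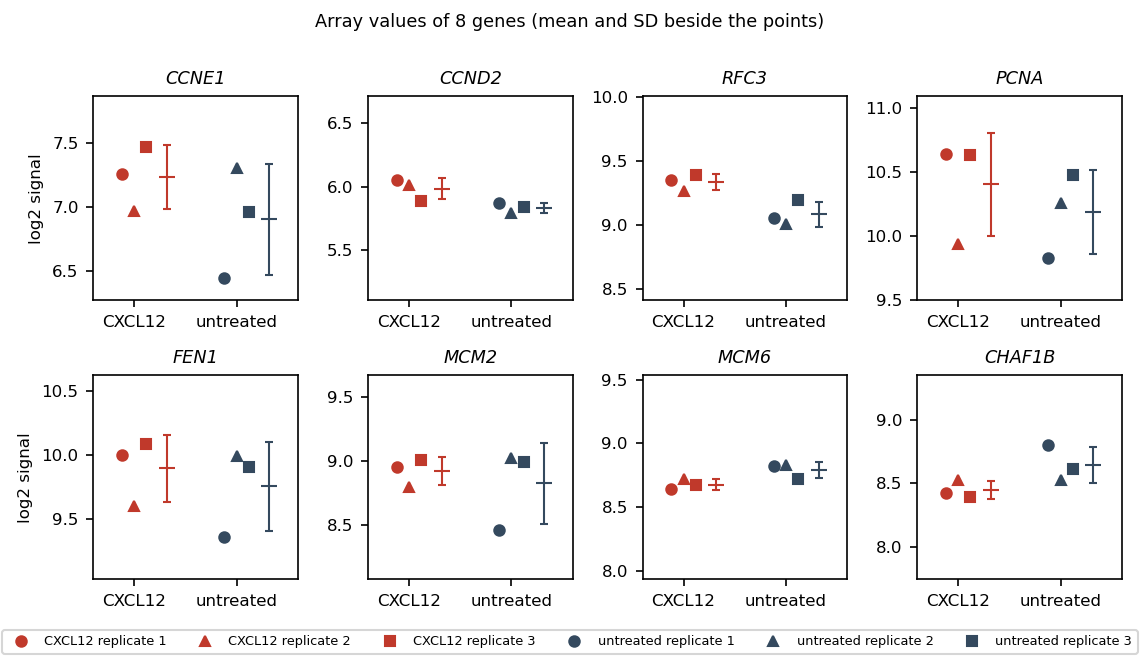
Log2 signal (vertical axis) of 8 genes on each array, with the mean and SD (n = 3) beside the points, CXCL12 left of untreated, marker shape giving the replicate number. Groups are separate in RFC3 and CCND2 and, by under 0.001, in MCM6 and CHAF1B, and untreated replicate 1 lies lowest in CCNE1, PCNA, FEN1 and MCM2.

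Of the genes that supply nucleotides, RRM1 and RRM2 encode the subunits of ribonucleotide reductase and TYMS encodes thymidylate synthase. UNG encodes the glycosylase that removes uracil from DNA. TYMS had 10.95, 10.78 and 11.06 with CXCL12, against 10.62, 10.88 and 10.88 untreated, a log2 difference of 0.14 (95% interval -0.15 to 0.42) that was 0.05 without untreated replicate 1. RRM2 differed by 0.09, or by 0.02 without untreated replicate 1 and 0.17 without CXCL12 replicate 2. RRM1 differed by less than 0.01 in size (a log2 difference of -0.00408). UNG had 7.90, 7.62 and 7.68 with CXCL12, against 7.50, 7.76 and 8.16 untreated, so the CXCL12 arrays lay inside the untreated range (log2 difference -0.07).

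The 3 genes of chromatin and histone supply all had negative differences that did not pass. CHAF1A and CHAF1B encode subunits of chromatin assembly factor 1, which deposits histones behind the fork, and SLBP encodes the protein that binds the stem-loop of replication-dependent histone mRNA. CHAF1B had 8.423, 8.528 and 8.396 with CXCL12, against 8.800, 8.528 and 8.611 untreated. The CXCL12 arrays lay below the untreated arrays, again with a nearest pair equal to 3 decimals. The log2 difference was -0.20 (0.872-fold, SE 0.12, 95% interval -0.46 to 0.07, limma adjusted p = 0.996), or -0.12 without untreated replicate 1. SLBP had 9.20, 9.10 and 8.98 with CXCL12, against 9.27, 9.10 and 9.37 untreated, a log2 difference of -0.15 (95% interval -0.42 to 0.12). CHAF1A differed by -0.06.

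Counted over the 33 genes, the groups were separate for 4. In 2 of them, CCND2 and RFC3, all CXCL12 arrays were higher, against 5.05% of all probe sets. In the other 2, MCM6 and CHAF1B, all were lower, against 4.48%. The share of the 33 (12.1%) was near the background of 9.54% for separation in either direction, so it is not a result about these genes.

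The spread over all 6 arrays was also described, without regard to group. The range over the 6 arrays had a median of 0.384 for the 33 genes, against 0.435 for all probe sets tested. It exceeded 0.5 in 11 genes (33.3%, against 37.0% of all probe sets). Untreated replicate 1 was the lowest of the 6 arrays for 12 of the 33 genes (36.4%), against 25% of all probe sets. It was the highest for 7 of the 33, against 24.3% of all probe sets. In the further lists described below it was lowest for 25 of 79 G1/S and replication genes (31.6%) and 7 of 23 G2/M genes (30.4%). Untreated replicate 1 and CXCL12 replicate 2 together were the lowest pair for 9 of the 33 genes (27.3%), against 14.3% of all probe sets. These 9 were E2F2, MCM2, MCM4, GINS2, PCNA, FEN1, RRM2, TYMS and UNG. The opposite order, with that pair highest, was found in ORC6 and GINS1 (6.06%, against 10.8%). This grouping was chosen after the values were seen and crosses the treatment groups.

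Untreated replicate 1 also stood apart over the whole array: its mean correlation with the other arrays over 16086 probe sets was 0.982, against 0.987 to 0.989 for the rest, and on principal component 1 (38.6% of the variance) it had a score of -27.8, followed by CXCL12 replicate 2 at -5.84, with the others from 5.26 to 11.6. Beside the values without it given above, leaving it out moved these log2 differences by more than 1.5 times: E2F1 to -0.03, E2F2 to -0.08, E2F3 to -0.14, CDT1 to -0.29, MCM3 to -0.08, MCM5 to -0.11, MCM10 to -0.02 and CDC45 to -0.03. Likewise CDC7 moved to -0.03, GINS2 to -0.15, RRM1 to 0.05, UNG to -0.23, CCNE2 to 0.05 and POLA1 to 0.04. Leaving it out, 0 of the 33 genes passed, 9 differences were positive and the median was -0.06. Of the T cell markers listed, 10 of 10, among them CD3D, CD3E and LCK, were above the dim limit. Their summed log2 signal ran from 95.2 to 95.9 with CXCL12 and from 95.2 to 95.8 untreated. Some markers of other cell types were above the dim limit as well (3 of 4 for B cells with CD79A among them, 2 of 4 for monocytes, with LYZ dim, 2 of 2 for erythroid, 2 of 3 for epithelial and 3 of 3 for fibroblast cells), so passing that limit does not bear on the label of the cells.

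The median of the 33 genes on each array, relative to the untreated mean of each gene, was 0.02, -0.07 and -0.02 in CXCL12 replicates 1, 2 and 3, against -0.06, 0.02 and 0.09 on the untreated arrays in the same order of numbers. CXCL12 replicates 1 and 3 lay within the untreated range, and CXCL12 replicate 2 lay just below it.

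**Figure D4:**
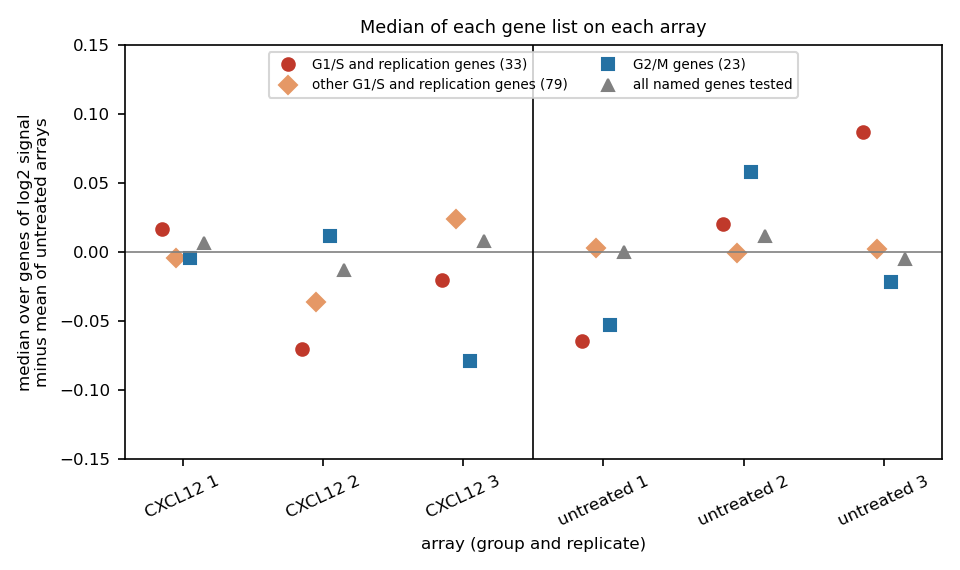
Median over the genes of a list of log2 signal minus the untreated mean of each gene (vertical axis), on each array, CXCL12 left of the line and untreated right of it. The 33 genes span -0.07 to 0.09, and the values of both groups overlap around 0.

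A further 83 genes of the same pathways were listed, of which 79 had a named probe set and passed the dim filter. Of the 79, 0 rose and 0 fell past the adjusted threshold, against 0.0124% and 0% of all probe sets. At an unadjusted limma p under 0.05 the count was 0, against 4.73%. Log2 differences were positive for 36 and negative for 43 (54.4% negative, against 49.3% of all probe sets), with a median of -0.01. The 2 genes of each list with the smallest p are named here. Among cell cycle regulators, CDKN1A, the gene of the CDK inhibitor p21, had a log2 difference of 0.27, and CCND1, the gene of cyclin D1, one of -0.18. All 7 further E2F and DP factors had negative differences (100%, against 49.3% of all probe sets), none past the threshold. TFDP2, a dimerisation partner of E2F factors, had -0.25 (limma unadjusted p = 0.0777, adjusted p = 0.996), and E2F8, an E2F repressor, had -0.25. The licensing genes ORC2 and ORC4 had 0.17 and -0.20, the GINS subunit GINS3 had 0.19 and the checkpoint adaptor CLSPN had -0.15. POLE2, a subunit of polymerase epsilon, had -0.19 and RNASEH1, which digests RNA paired to DNA, had 0.11. DUT, the dUTPase, had 0.18, RRM2B, a reductase subunit, 0.09, and the histone chaperones ASF1B and ASF1A -0.17 and -0.11. Differences without 1 array are not given for the genes of these lists, and single arrays could move them too. Untreated replicate 1 was the lowest array for DUT (9.46, with 9.98 and 10.18 in untreated replicates 2 and 3) and RRM2B (6.29, with 6.69 and 6.48). It was the highest for POLE2 (8.47, with 7.77 and 7.92) and E2F8 (8.90, with 8.53 and 8.40). It was neither for CDKN1A, RNASEH1 and ASF1B.

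Genes of the later G2/M phase were set beside them. Of 23 such genes, all tested, 8 had a positive and 15 a negative log2 difference (65.2% negative, against 66.7% of the 33 G1/S genes). Their median was -0.05, against -0.04 for the G1/S genes. Of the 23, 0 passed the adjusted threshold, against 0.0124% of all probe sets, and 0 had an unadjusted limma p under 0.05, against 4.73%. The G2/M genes with the smallest p were CDK1, the mitotic kinase, with a log2 difference of 0.29, and UBE2C, a ubiquitin-conjugating enzyme of mitotic exit, with 0.25. CDK1 had 9.94, 9.55 and 9.94 with CXCL12, against 9.25, 9.46 and 9.86 untreated. UBE2C had 8.34, 7.76 and 8.26 with CXCL12, against 7.34, 8.14 and 8.11 untreated. For both genes untreated replicate 1 was the lowest array, and their differences without 1 array are not given here. The lists were described by counts and medians, and the difference between them was not tested.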

How the data were processed

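Per the submitters' processing notes, the authors used RMA (background subtraction, normalization between arrays and probe set summary) and the Transcriptome Analysis Console. The genome build, versions and settings were not given in the sources used here. Log2 values were deposited for 21448 probe sets on 6 arrays, from 1.99 to 13.1. Scanner files were not used here, so the RMA step was not repeated or checked. Precision is limited by the number of arrays. Names come from the platform annotation, which can be old (17709 probe sets with 1 gene symbol, 0 with several, 3739 unnamed here).

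The 25% of probe sets with the lowest means (below 4.44) were left out as dim. The other 16086 were fitted with limma 3.58.1 under R 4.3.3 (lmFit, eBayes, two-sided tests, no covariates), with Benjamini-Hochberg adjustment over all of them and a threshold of 0.05. Differences are log2, CXCL12 minus untreated. The code was tested on simulated data. The genes named are all 33 genes of the rule, the 2 with the smallest unadjusted p in each further list, EGR1, CD69 and CXCR4. Cell type markers given as examples, GPR3 and SGK1 were named after their values were seen. Genes and lists were chosen with earlier results of these data known, so no list was tested as a set. Alternatives covered the dim filter, normalization, a replicate block, array weights, the variance prior, the threshold, the averaging of probe sets, and fits without 1 array.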

Additional observations from a re-analysis of the deposited data

How the results depend on the processing

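The count of 0 among the 33 genes held in each of 13 other fits, where the smallest limma adjusted p was 0.788, and with an unadjusted p under 0.05 and a 1.5-fold change. At an unadjusted limma p alone the count was 0 or 1: RFC3 under the stricter dim filter (the lower 50% removed, CCND2 among them), with quantile normalization again, with the trended robust prior and without untreated replicate 3, PCNA without CXCL12 replicate 2, and CCNE1 without untreated replicate 2. Over all probe sets, 412 of 10724 had such a p under the stricter dim filter. In the other fits just named it was 714, 686, 810, 1014 and 833 of 16086, in that order. Counts of 0 or 1 are not read as a result about these genes. With any 1 array left out, positive differences numbered 9 to 16 of 33, and the median ran from -0.06 to -0.01. They numbered 14 with quantile normalization again and 9 with median centring. Over all probe sets the count of 2 became 1 with no dim filter and with median centring, 3 under the stricter dim filter and with the trended robust prior (GPR3 added), 4 with array weights (GPR3 and SGK1 added), 34 under the unadjusted p with 1.5-fold, and was 1 or 2 with any 1 array left out.

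Signs turned for 17 of the 33 genes, none past the threshold. With quantile normalization again these were ORC1 (0.00818), CDC45 (0.00854) and RRM1 (0.0102), and with median centring E2F1 (-0.00413) and MCM4 (-0.00423). With array weights they were E2F1 (-0.00568), ORC1 (0.0116), MCM4 (-0.0468), POLA1 (0.0612) and RRM1 (0.0230). Over the fits without 1 array, CCNE2 ran from -0.249 to 0.0505, CCND3 from -0.0860 to 0.0189, E2F1 from -0.0585 to 0.0807, E2F2 from -0.0806 to 0.179, E2F3 from -0.145 to 0.158 and ORC1 from -0.103 to 0.0774. MCM2 ran from -0.0883 to 0.196, MCM3 from -0.0774 to 0.00423, MCM4 from -0.136 to 0.119, MCM5 from -0.114 to 0.00935 and CDC45 from -0.0663 to 0.0103. CDC7 ran from -0.154 to 0.0160, GINS2 from -0.182 to 0.00124, POLA1 from -0.170 to 0.0612, FEN1 from -0.0568 to 0.290, RRM1 from -0.0587 to 0.0527 and UNG from -0.226 to 0.102. The other 16 genes kept their sign throughout. The cause of these turns was not tested.

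The labels state no pairing by number, and deviations of same-numbered arrays correlated across probe sets at -0.19, -0.11 and 0.11, so the numbers were not taken as pairs. The replicate block gave 2 probe sets over the array, 0 of the 33 genes, 11 positive differences and a median of -0.04, and moved no call. Each gene has 1 probe set, so averaging probe sets moved nothing. With 3 arrays a side, the median of the 95% intervals' half-widths over all probe sets was 0.29 on the log2 scale (1.23-fold).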

Other observations

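The order of the arrays seen in PCNA and FEN1, with untreated replicate 1 and CXCL12 replicate 2 lowest, was also counted in the neighbouring lists, a count chosen after the values were seen. It held for 17 of the 79 further G1/S and replication genes (21.5%) and for 4 of the 23 G2/M genes (17.4%), against 14.3% of all probe sets. By list it held for 7 of 22 polymerase, clamp and strand maturation genes (31.8%) and 2 of 6 nucleotide supply genes (33.3%). Among G1 cyclins, CDKs, inhibitors and pocket proteins it held for 5 of 17 (29.4%). It held for 2 of 9 replisome genes (22.2%), 1 of 8 chromatin genes (12.5%) and 0 of 10 licensing and firing genes. The reverse order, with that pair highest, held for 8 of the 79 (10.1%) and 5 of the 23 (21.7%), against 10.8% of all probe sets. Of the 7 further E2F and DP factors, 0 had the pair lowest and 1 had it highest. CXCR4, the receptor of CXCL12, had untreated replicate 1 as its highest array, with log2 signals of 10.43, 10.75 and 10.48 with CXCL12, against 11.17, 10.88 and 10.73 untreated. Its groups overlapped, and its log2 difference of -0.37 (95% interval -0.69 to -0.06) did not pass (limma unadjusted p = 0.0247, adjusted p = 0.996).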
